A study of Mus musculus with 12 samples.

Results

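The difference made by cell origin to the effect of Tgfbr2 deletion was measured as an interaction: the KO minus WT change in macrophages minus the KO minus WT change in microglia, on the log2 scale. All 12 libraries of the series entered, 3 in each of 4 groups, and 12519 of the 25904 listed genes were tested. A positive interaction means that the change in macrophages lay above the change in microglia, and a negative interaction that it lay below. Called genes were sorted into classes: an effect in microglia alone, an effect in macrophages alone, effects in opposite directions, and effects in the same direction that were larger in one origin. The classes follow from the same fit as the interaction, so their sizes and their members' values are a description, and only the interaction of each gene is a test of the difference.

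Microglia came from C57BL/6 mice that were Tgfbr2 fl/fl without Cre (WT) or Cx3cr1 CreER/+ Tgfbr2 fl/fl (Tgfbr2 KO). CreER is a recombinase active only with tamoxifen, here driven from the Cx3cr1 locus, so KO cells of both origins also carry 1 altered Cx3cr1 allele. Macrophages came from Cx3cr1 CreER/+ R26 DTA/+ recipients, in which tamoxifen switches on diphtheria toxin A in cells that express Cx3cr1. These recipients had been irradiated and had received bone marrow of the same WT or KO genotypes, and tamoxifen 6 weeks later depleted their microglia. All mice had 3 daily tamoxifen injections of 5 mg, and cells of brain and spinal cord were sorted 18 to 22 days afterwards. Live Ly6C- CD11b+ cells were taken, F4/80 low for WT and F4/80 high for KO, so the gate changed with genotype in both origins, and irradiation and transplantation went with the macrophage origin. Each library pooled 1 to 5 mice. P-values rest on the spread within groups of 3 such pools, taken as 1 variance per gene over all 4 groups and moderated by other genes. A wide spread in 1 group therefore also widens the SE of the effect in the other origin.

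TGF-beta binds the receptor subunit encoded by Tgfbr2, which recruits and activates Tgfbr1, and the pair phosphorylates Smad2 and Smad3, which enter the nucleus with Smad4. In the brain this signal is known to maintain the gene programme of microglia, the resident macrophages that enter the brain before birth and renew themselves there. When microglia are removed, cells from the marrow can take their place and acquire part of that programme, while keeping genes such as Ms4a7 that mark their origin.

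Libraries held 2615404 to 6364994 reads in genes, so that 1 read was worth 0.718 to 1.6 normalized counts. KO macrophage replicate 1 was the shallowest and correlated least with its group (r = 0.935, across genes). Labels give no sex. Ddx3y, on the Y chromosome, was above 400 normalized counts in all 3 KO microglia pools and in 1 pool of each other group, so sex was spread unevenly over the groups. Tgfbr2 itself had 3172, 3026 and 2495 normalized counts in WT and 2078, 2256 and 2246 in KO microglia, beside 3427, 2997 and 3486 in WT and 2068, 2469 and 2167 in KO macrophages. KO libraries lay below WT libraries in both origins, and the interaction was -0.17 ± 0.14 (SE; adjusted p = 0.419; 95% interval -0.48 to 0.14). Gene-level counts do not separate the floxed exons from the rest, so this value does not measure how complete the deletion was. The macrophage markers Itgam and Adgre1 (F4/80, on which the cells were gated) were present in every library. Adgre1 rose from 1575, 1286 and 1367 normalized counts to 3862 ± 206 in microglia, against 2598 ± 219 to 3792 ± 209 in macrophages (interaction -0.91 ± 0.13, adjusted p = 0.0001). Itgam had a called interaction of the other sign (1.38, adjusted p = 0.00478). Microglia markers summed to 38848 to 50038 in WT microglia and 11503 to 12344 in WT macrophages over 10 genes. Neutrophil markers summed to 0 to 24.6 normalized counts over 6 listed genes. Summed neuron markers were 18.5 to 34.8 in WT and 135 to 186 in KO microglia, beside 39.1 to 71.2 in WT and 111 to 184 in KO macrophages. Of these 13 markers 7 were tested, and 6 rose in microglia and 4 in macrophages, beside 21.9% and 16.0% of all tested genes. An interaction was called for 2 of the 7 (28.6%), a share near the 25.8% of all tested genes. Both were negative, where 12.9% of all tested genes had a negative interaction. The part of these markers in the results below was not tested.

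The interaction was called for 3235 of 12519 genes (25.8% at an adjusted p under 0.05), 1624 positive (13.0%) and 1611 negative (12.9%). The deletion changed 5322 genes in microglia (42.5%) and 3934 in macrophages (31.4%). Of the 3235, 1489 changed in microglia alone (11.9% of tested genes), 532 in macrophages alone (4.25%), and 257 in opposite directions (2.05%). Another 731 changed in the same direction and more in microglia (5.84%), 90 in the same direction and more in macrophages (0.719%), and 136 in neither origin at this threshold (1.09%). In bulk RNA, fewer cells of a type and less RNA per cell cannot be told apart. Changes are on the scale log2(normalized count + 1), which understates the change of genes near 0, and 2621 of the 3235 called genes had a mean of at least 10 normalized counts in every group. The plot of both effects shows how the classes lie.

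**Figure D1:**
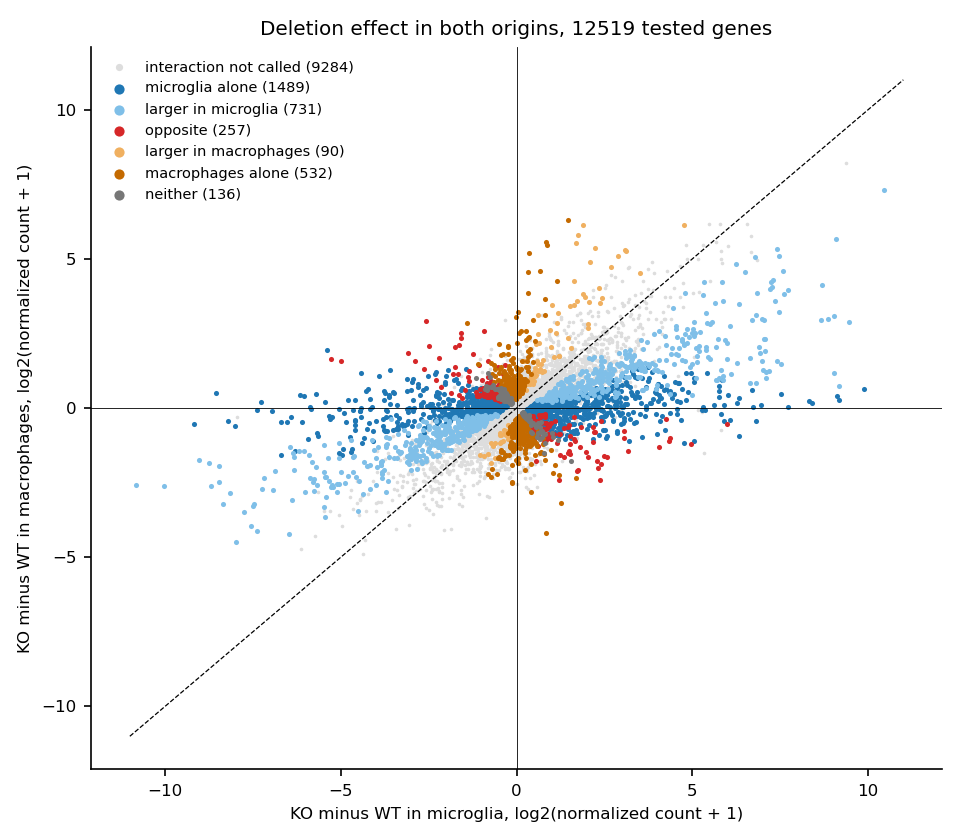
KO minus WT log2 change in microglia (x axis) and in macrophages (y axis) for the 12519 tested genes, 1 point a gene, coloured by class. The 1489 genes called in microglia alone lie along the x axis, the 532 called in macrophages alone along the y axis, and the 257 opposite genes at the upper left and lower right.

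Among the genes that changed in microglia alone, 765 rose and 724 fell. Their other effect was bounded for 1132 of the 1489: its 95% interval in macrophages lay within a 2-fold change either way. Of the 1489, 1091 were expressed in both origins (a group mean of at least 50). For 329 of the 1489 the KO and WT libraries did not overlap in either origin, beside 3676 of the 12519 tested genes. Alone thus means that no effect was called in macrophages, and not that there was none. For the 765 that rose, median levels went from 80.8 to 190 normalized counts in microglia and stood at 197 and 196 in WT and KO macrophages. For those that fell, medians went from 225 to 115 in microglia and stood at 122 and 129 in macrophages. In both directions the median of KO microglia lay near those of WT and KO macrophages.

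Of 29 tested genes known from marrow-derived macrophages of the brain, 13 rose in microglia alone and 9 more rose in both origins and more in microglia. In all 1 had a positive and 23 a negative interaction (82.8% called, beside 25.8% of all tested genes), with medians of 4.23 in microglia and 0.22 in macrophages. Summed monocyte markers, over 9 listed genes, were 48.6 to 58 in WT and 166 to 225 in KO microglia, beside 279 to 310 in WT and 389 to 542 in KO macrophages. Of the 4 tested, Ccr2 and Ms4a4c rose in microglia alone (interactions -1.62 ± 0.39 and -2.79 ± 0.44), and Ccr2 belongs to both lists. Treml4 went the other way and rose more in macrophages, from a mean of 3.7 to 121, beside 0.881 to 8.96 in microglia (interaction 2.04, adjusted p = 0.0392). The interaction of Vcan was not called (-0.37). Ly6c2 was at 0 in all libraries but 2 of KO macrophages, where it was under 3 normalized counts. The part of monocytes in the marrow-derived list was not tested. Ms4a7, a membrane protein gene that marks marrow-derived macrophages in the brain, had 7.05, 1.29 and 6.21 normalized counts in WT and 3038, 2743 and 2651 in KO microglia, beside 2005, 1853 and 2044 in WT and 2580, 2665 and 2508 in KO macrophages. WT microglia stood apart from the other 9 libraries. The log2 change was 9.1 ± 0.31 in microglia and 0.39 ± 0.31 in macrophages, with an interaction of -8.71 ± 0.44 (adjusted p = 2.05e-09). Every KO macrophage library still lay above every WT one, and Ms4a7 left the class of microglia alone in 3 of 21 other settings. Ms4a14, of the same family on chromosome 19, had means of 2.29 ± 1.14 (SD, n = 3), 1843 ± 319, 1299 ± 97.3 and 1548 ± 36.6 in the same order of groups. Cybb, the catalytic subunit of the phagocyte NADPH oxidase, had 36.1, 19.3 and 58 normalized counts in WT and 4117, 4340 and 4813 in KO microglia, beside 4327, 3763 and 4356 in WT and 4064, 4971 and 4372 in KO macrophages. Its change was 6.96 ± 0.25 in microglia and 0.11 ± 0.25 in macrophages (interaction -6.86 ± 0.35, adjusted p = 2.37e-09). Itga4, the alpha 4 integrin chain, had group means of 28.6 ± 7.82, 1127 ± 73.5, 2100 ± 15.6 and 2034 ± 154. Cxcl16, a chemokine anchored in the membrane, had 238 ± 17.3, 1860 ± 46.3, 1945 ± 78.7 and 2051 ± 48.1, and the 95% interval of its macrophage change was -0.08 to 0.23. Cp encodes ceruloplasmin, a copper-containing ferroxidase, and went from 12.3 ± 8.29 in WT microglia to 1372, 1177 and 1432 in KO microglia and had 1145 ± 183 and 857 ± 139 in macrophages. Mndal and Ifi203, interferon-inducible genes of 1 cluster on chromosome 1 whose near-identical copies can share reads, had interactions of -8.24 and -8.05.

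Tlr8, an endosomal receptor for single-stranded RNA encoded on the X chromosome, had 1.76, 0 and 0 normalized counts in WT microglia (2 reads in all) and 330, 239 and 316 in KO microglia, a ratio of 426 (95% counting interval 118 to 3526). In macrophages it had 578, 559 and 1412 in WT and 576, 1459 and 589 in KO. The 2 high macrophage values were those of the pools with high Ddx3y. The interaction was -7.67 ± 0.61 (adjusted p = 3.28e-07), and the 95% interval of the macrophage change, -0.88 to 0.96, reached almost a 2-fold change either way.

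Socs3, a feedback inhibitor of cytokine receptor signalling, fell in microglia alone. It had 554, 407 and 440 normalized counts in WT and 69.7, 37.4 and 54.7 in KO microglia, beside 113, 90.2 and 88.1 in WT and 94.4, 88.1 and 101 in KO macrophages. Both macrophage groups overlapped, and the 95% interval of their difference was -0.45 to 0.39 against a change of -3.12 ± 0.2 in microglia (interaction 3.09 ± 0.28, adjusted p = 9.78e-07). The death receptor gene Tnfrsf21 had a mean of 901 ± 73.4 in WT microglia, and its means in KO microglia, WT macrophages and KO macrophages were 252 ± 20.7, 253 ± 30.7 and 304 ± 41.2. Mertk and Axl, receptors for the uptake of dying cells, changed in microglia in opposite directions to each other. Mertk fell from 6132 ± 664 to 2745 ± 152 normalized counts, beside 3247 ± 346 and 3288 ± 240 in macrophages (interaction 1.18 ± 0.14, adjusted p = 2.34e-05). Axl rose from 97.8, 68.3 and 186 to 2537 ± 65.9, beside 3725 to 4177 in KO and 4015 ± 350 in WT macrophages (interaction -4.56 ± 0.33, adjusted p = 1.05e-07). The transcription factor genes Sall1 and Sall3, which define microglia, also stood in this class, but macrophages held at most 19.2 and 2.73 normalized counts of them in any library, so a fall there could not have been seen.

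**Figure D2:**
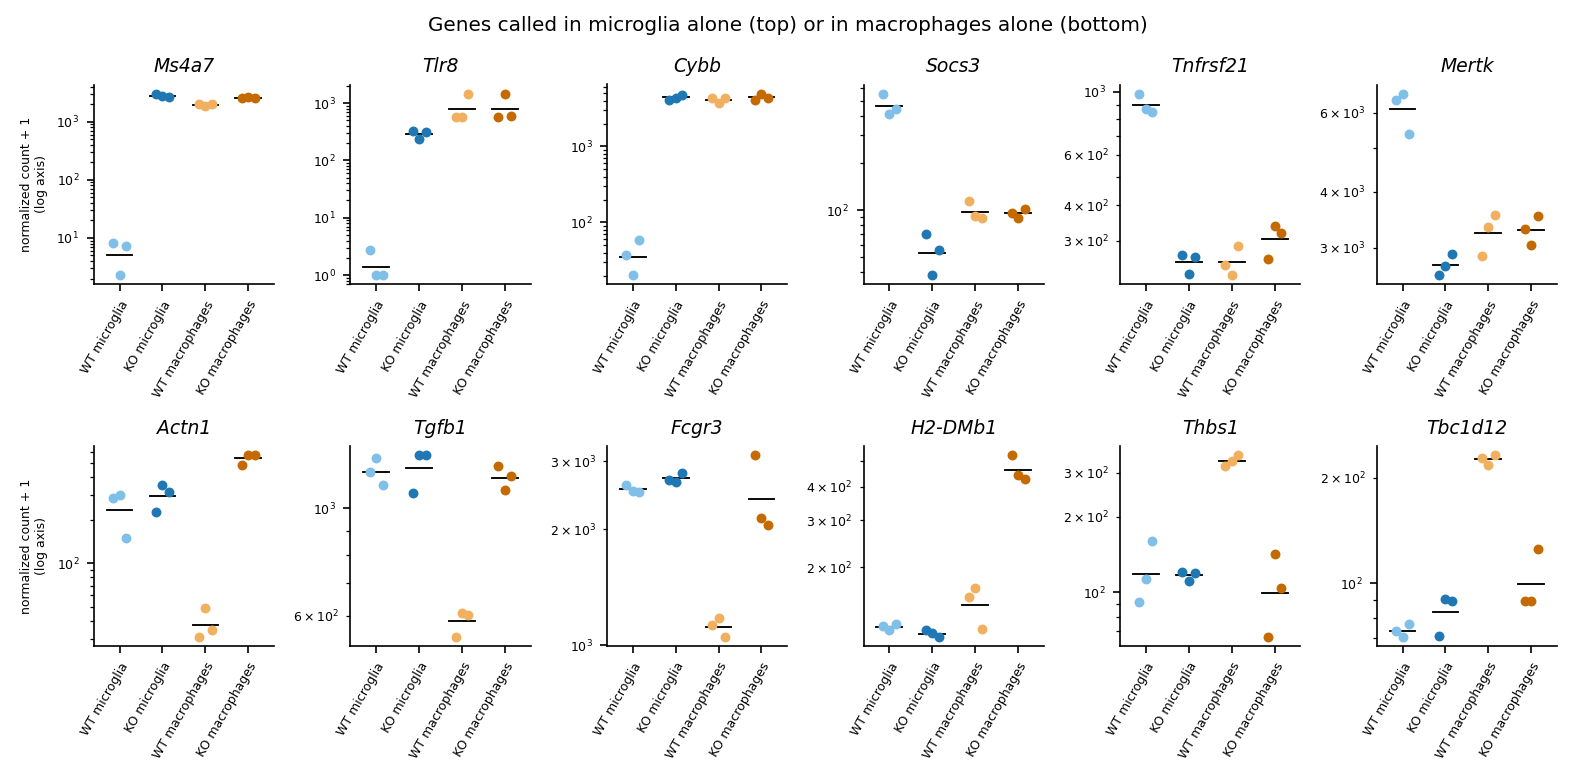
Normalized counts on a log axis for 6 genes called in microglia alone (top) and 6 called in macrophages alone (bottom), 1 point a library and a line at each group's mean on the log scale. In the top panels WT microglia stand apart from the other groups, as for Socs3 at 407 to 554 against 37.4 to 113, and for Actn1 in the bottom panels WT macrophages stand apart at 30 to 48.3.

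In macrophages alone 264 genes rose and 268 fell. The class held 318 genes in place of 532 without WT macrophage replicate 1 and 320 with Ddx3y as a covariate. The microglial effect of 449 of these 532 had a 95% interval within a 2-fold change either way, and 443 were expressed in both origins. For 142 of the 532 the KO and WT libraries did not overlap in either origin, beside 3676 of the 12519 tested genes. Median levels of the 264 that rose went from 144 to 248 normalized counts in macrophages and stood at 243 and 231 in WT and KO microglia. For those that fell they went from 309 to 189, beside 207 and 214.

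Actn1, a crosslinker of actin filaments, had 30, 48.3 and 33.7 normalized counts in WT and 487, 565 and 567 in KO macrophages. In microglia it had 244 ± 82.9 in WT and 298 ± 62.9 in KO, and these overlapped. The change was 3.84 ± 0.24 in macrophages and 0.33 ± 0.24 in microglia, with a 95% interval of -0.19 to 0.84 (interaction 3.51 ± 0.34, adjusted p = 2.18e-06). Pmp22, a membrane protein gene best known from peripheral myelin, had 106, 103 and 104 in WT and 647, 414 and 390 in KO macrophages. WT microglia had 888, 769 and 595 and KO microglia 666, 818 and 756, all above WT macrophages. Pilra encodes an inhibitory receptor of myeloid cells. Its means were 81.8 ± 8.14, 89.9 ± 11.8 and 81.6 ± 22.3 in WT microglia, KO microglia and WT macrophages and 481 ± 80.1 in KO macrophages, so here KO macrophages stood apart. The same order held for Psap, the precursor of saposins that activate lysosomal lipid breakdown, with 7022 ± 383, 6783 ± 269, 6936 ± 611 and 12261 ± 1133 (interaction 0.87 ± 0.14, adjusted p = 0.000246).

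Thbs1, a matrix protein gene whose product can activate latent TGF-beta, fell in macrophages alone. It had 317, 332 and 352 normalized counts in WT and 103 ± 37.9 in KO macrophages, beside 90.8, 112 and 159 in WT and 120, 110 and 119 in KO microglia. Its change was -1.75 ± 0.23 in macrophages and -0.02 ± 0.23 in microglia (interaction -1.73 ± 0.33, adjusted p = 0.0011). Tbc1d12, of a family of Rab GTPase regulators, had 225 ± 7.02 in WT and 88, 88.1 and 124 in KO macrophages, beside means of 72.5 ± 3 and 82.5 ± 11.1 in microglia. Mir99ahg, the host transcript of a microRNA cluster, went from 938 ± 105 to 294 ± 90.8 in macrophages and had 761 ± 135 and 583 ± 81.3 in microglia. KO macrophage replicate 1 was the lowest library for Thbs1 and Mir99ahg.

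Opposite effects were called for 257 genes: 137 rose in macrophages and fell in microglia, and 120 fell in macrophages and rose in microglia. For 244 of them the KO and WT libraries did not overlap in either origin, beside 1565 of the 3235 called and 3676 of the 12519 tested genes. The class requires a call in both origins, which favours such a separation. The class held 170 genes without WT macrophage replicate 1 and 46 with a minimum change of 1 on the log2 scale for each call. Medians of the first 137 went from 416 to 229 normalized counts in microglia and from 174 to 243 in macrophages. Medians of the other 120 went from 154 to 268 in microglia, against 447 to 276 in macrophages. KO medians of both origins thus lay between the WT medians.

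Itgb2, the beta 2 integrin chain that pairs with Itgam, had 1921, 1896 and 1833 normalized counts in WT and 820, 917 and 852 in KO microglia, beside 863, 910 and 966 in WT and 1175, 1232 and 1210 in KO macrophages. No KO library overlapped a WT library of its origin. The change was -1.13 ± 0.07 in microglia and 0.40 ± 0.07 in macrophages (interaction 1.53 ± 0.1). The TGF-beta co-receptor endoglin (Eng) had 642, 652 and 586 in WT and 166, 200 and 196 in KO microglia, beside 62.8, 89 and 59.3 in WT and 200, 175 and 172 in KO macrophages. Its KO libraries overlapped between origins, and its interaction was 3.12 ± 0.2 (adjusted p = 3.22e-08). Pecam1, an adhesion molecule of vessel and myeloid cells, went from 179 ± 57.7 to 27.8 ± 1.54 in microglia, against 13.3 ± 5.75 to 103 ± 20 in macrophages. The other 11 vessel cell markers summed to 83.8 to 102 in WT and 89.4 to 113 in KO microglia, beside 89 to 93 in WT and 51.2 to 91.6 in KO macrophages, so their sums overlapped between WT and KO in both origins. The chemokine Ccl9 went from 289 ± 101 to 91.1 ± 7.9 in microglia, against 22 ± 3.3 to 131 ± 33.5 in macrophages. The lysosomal protease Ctsl went from 1876 ± 84.8 to 645 ± 46.4 and from 346 ± 7.16 to 440 ± 19.9. Hes1, a target of Notch signalling, had 71, 62.3 and 70.8 in WT and 335, 113 and 91.2 in KO macrophages, so its size there rests on replicate 1, while all 3 lay above WT.

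In the other direction, Apoe, the lipid carrier of glia and macrophages, had 1733, 1232 and 1575 normalized counts in WT and 91050, 94003 and 99825 in KO microglia. In macrophages it had 128224, 139095 and 122195 in WT and 98693, 91715 and 79844 in KO. It rose by 5.98 ± 0.15 in microglia and fell by 0.53 on the log2 scale (SE 0.15, adjusted p = 0.0131) in macrophages, and the KO libraries of both origins overlapped. The interaction was -6.51 ± 0.21 (adjusted p = 1.2e-11). Cxcr4, the receptor for Cxcl12, had 3.53, 3.87 and 3.1 in WT and 94.3, 85.5 and 95.7 in KO microglia, beside 689, 726 and 650 in WT and 458, 277 and 306 in KO macrophages (interaction -5.39 ± 0.24, adjusted p = 5.06e-10). Adam33, a membrane metalloprotease, went from 25.5 ± 14.8 to 139 ± 40.1 in microglia, against 452 ± 39.3 to 151 ± 49.5 in macrophages. Arhgap15, a Rac GTPase-activating protein, went from 40.4 ± 32.3 to 99.4 ± 22.8 and from 1524 ± 196 to 530 ± 88.9, but WT microglia replicate 3, at 77.6, overlapped the KO microglia at 77.2 to 123. Jag1, a Notch ligand, and the transcription factor Runx3 fell from 280 ± 21.3 to 93.9 ± 33 and from 493 ± 52.9 to 162 ± 44.4 in macrophages. Their rises in microglia were small in counts, to means of 14.8 ± 3.46 and 8.84 ± 4.91, and the microglia libraries of Runx3 overlapped (1.29 to 5.29 in WT and 3.93 to 13.7 in KO). Means at or under 15 normalized counts in both genotypes likewise carried 1 side of the opposite call for Lrrk2 in microglia. The same held for Myo6, Zfp827, Khdrbs3 and Kcnma1 in macrophages. For Cxcr4 in microglia and Pecam1 in macrophages the WT mean alone was under 15. Over 21 other settings the opposite class was lost in 7 for Kcnma1, 6 for Khdrbs3, 5 for Zfp827 and Hes1, 4 for Runx3, 3 for Jag1 and 1 for Lrrk2 and Myo6. For Hes1 these included leaving out KO macrophage replicate 1 or any WT macrophage library. Itgb2, Eng, Pecam1, Ccl9, Ctsl, Apoe, Cxcr4, Adam33 and Arhgap15 were opposite in all 21.

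**Figure D3:**
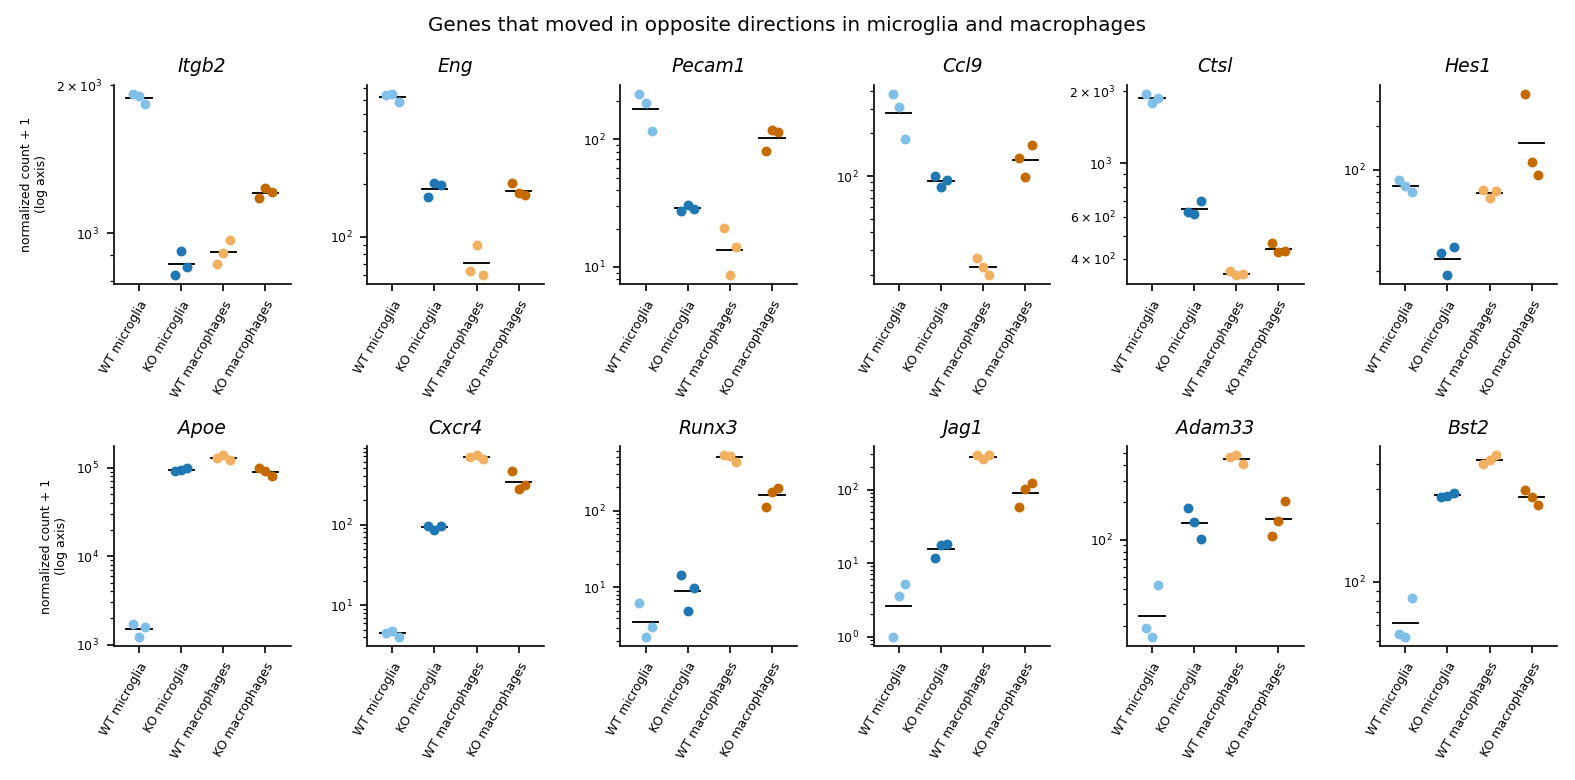
Normalized counts on a log axis for 12 genes called with opposite signs, 1 point a library and a line at each group's mean on the log scale. In the top panels KO lies below WT in microglia and above WT in macrophages, as for Itgb2 at 820 to 917 against 1833 to 1921 and at 1175 to 1232 against 863 to 966. In the bottom panels it is the other way round.

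Of the genes that changed in the same direction and more in microglia, 372 rose and 359 fell. Median changes of those that rose were 2.69 in microglia and 1.08 in macrophages, and of those that fell -2.21 and -0.97. Ms4a4a had 0 reads in all 3 WT microglia libraries and 512, 537 and 697 normalized counts in KO microglia, which is at least 566-fold higher against a floor of 3 reads over the group. In macrophages it had 324, 328 and 267 in WT and 509, 464 and 552 in KO, a change of 0.73 ± 0.15. Mrc1, the mannose receptor, went from 87.6 ± 14.9 to 16082 ± 2279 in microglia, against 4356 ± 514 to 12182 ± 301 in macrophages (interaction -6.02 ± 0.18, adjusted p = 5.72e-12). It belongs to 15 tested genes of border macrophages, which line the meninges and vessels. All 15 rose in microglia and 14 in macrophages, beside 21.9% and 16.0% of all tested genes, and 12 had a negative interaction (80.0%, beside 12.9%).

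Of 39 tested genes of the homeostatic microglia programme, 28 lay in the class that fell more in microglia and 8 fell in microglia alone. In all, 37 fell in microglia, beside 20.6% of all tested genes, and 37 had a positive interaction (94.9%, beside 13.0%). Medians were -3.58 in microglia, -1.13 in macrophages and 2.25 for the interaction, beside -0.01, 0.0 and 0.0 over all tested genes. Tmem119, a surface protein used to mark microglia, had 6265, 5734 and 5043 normalized counts in WT and 1.96, 2.95 and 1.61 in KO microglia, beside 1629, 1540 and 1797 in WT and 144, 412 and 363 in KO macrophages. KO microglia thus kept 0.0346, 0.0519 and 0.0283% of the WT mean, and KO macrophages 8.7, 24.9 and 21.9%. Olfml3, a secreted protein, fell from 5943 ± 669 to 5.06 ± 2.73 in microglia, against 1840 ± 77.3 to 332 ± 156 in macrophages. Over all 359 genes of the class that fell, the median level kept was 22.9, 20.1 and 20.8% in the KO microglia libraries and 45.8, 52.5 and 51.9% in the KO macrophage libraries. KO macrophage replicate 1 kept the least of its group in each of these. Whether cells with an intact receptor contributed to the levels left in KO macrophages was not tested. Cx3cr1, the fractalkine receptor gene that carries CreER on 1 allele in KO cells of both origins, fell from 19192 ± 2754 to 481 ± 125 in microglia, against 7919 ± 650 to 1443 ± 80.1 in macrophages (interaction 2.88 ± 0.21, adjusted p = 1.03e-07). P2ry6, a receptor for uridine diphosphate, was the 1 homeostatic gene called in macrophages alone, where it rose, and its interaction was not called with Ddx3y as a covariate (adjusted p = 0.0552).

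Larger effects in macrophages were rarer, with 66 genes that rose and 24 that fell. In all 90 the KO and WT libraries did not overlap in either origin, beside 1565 of the 3235 called and 3676 of the 12519 tested genes. This class too requires a call in both origins. The class held 54, 55 and 58 genes without WT microglia replicate 1 and KO microglia replicates 2 and 3, and 50 with Ddx3y as a covariate. Slc40a1, the iron exporter ferroportin, had 733, 801 and 688 normalized counts in WT and 3033, 3921 and 4325 in KO microglia, beside 205 ± 19.4 in WT and 3478, 3532 and 3027 in KO macrophages. KO libraries overlapped, and the change was 2.33 ± 0.12 in microglia and 4.02 ± 0.12 in macrophages (interaction 1.69 ± 0.17, adjusted p = 3.15e-06). Fcgrt, the neonatal Fc receptor, went from 207 ± 18.6 to 874 ± 87.9 in microglia, against 68.1 ± 5.51 to 825 ± 241 in macrophages. Adcy3, an adenylyl cyclase, went from 44 ± 12.6 to 322 ± 38.7 and from 9.36 ± 3.3 to 344 ± 46.5. The transferrin receptor Tfrc, which brings iron in, went from 67.9 ± 11 to 99.8 ± 9.92 and from 38.9 ± 7.32 to 175 ± 15.5. Of 17 tested genes of iron and heme handling, 14 rose in microglia and 11 in macrophages, beside 21.9% and 16.0% of all tested genes, while 3 had a positive and 4 a negative interaction (41.2% called, beside 25.8%). Stab2, a scavenger receptor for hyaluronan, and the adhesion receptor Adgrl3 had the highest levels in KO macrophages, at means of 326 ± 56.6 and 159 ± 63.8, beside 22.6 ± 11.2 and 19.5 ± 3.95 in KO microglia. WT levels of both were under 11 normalized counts in every library, and both interactions missed the threshold with a pseudocount of 0.1 and with limma-voom on reads (adjusted p up to 0.113 and 0.25). Among those that fell, Rcbtb2 went from 1003 ± 130 to 648 ± 58.3 in microglia, against 944 ± 112 to 298 ± 41.9 in macrophages.

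Genes of the TGF-beta pathway itself fell into several classes. Of 11 tested ligands, receptors and activators, 4 had a positive and 5 a negative interaction (81.8%, beside 25.8% of all tested genes). The receptor subunit gene Tgfbr1 went from 10242 ± 949 to 706 ± 14.5 normalized counts in microglia and from 8605 ± 529 to 2494 ± 541 in macrophages (interaction 2.04 ± 0.18, adjusted p = 1.1e-06). The ligand gene Tgfb1 had 542, 607 and 602 in WT and 1223, 1089 and 1164 in KO macrophages. In microglia it had 1191, 1269 and 1115 in WT and 1078, 1287 and 1289 in KO, which overlapped each other and the KO macrophages. Its change was 0.99 ± 0.09 in macrophages and 0.03 ± 0.09 in microglia, with a 95% interval there of -0.16 to 0.22 (interaction 0.96 ± 0.13, adjusted p = 4.85e-05). Of 22 tested transducers, feedback inhibitors and targets, 14 fell in microglia and 13 in macrophages, beside 20.6% and 15.4% of all tested genes, and 8 had a positive and 3 a negative interaction. With Ddx3y as a covariate 7 of the 22 had a positive interaction and none a negative one. The inhibitory Smad7 went from 1042 ± 136 to 46.5 ± 11.6 in microglia, against 462 ± 33.3 to 85.2 ± 18.6 in macrophages, and KO macrophages kept 13.9, 20.0 and 21.5% of the WT mean. Pmepa1, another feedback inhibitor, kept 2.37, 2.14 and 1.94% in KO microglia and 4.45, 16.5 and 13.7% in KO macrophages.

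Interferon-stimulated genes had called interactions of 1 sign. All 43 tested rose in microglia, beside 21.9% of all tested genes. In macrophages 23 rose and 2 fell, beside 16.0% and 15.4%. A negative interaction was called for 40 and a positive one for none (93.0%, beside 12.9% negative over all tested genes). Median changes were 2.97 in microglia and 0.72 in macrophages. Of the 40, 16 were called in microglia alone, 22 in both with the larger change in microglia, and 2 with opposite signs, Bst2 and Eif2ak2. The count that rose in macrophages depended on single libraries: it was 18 without WT macrophage replicate 2, and 18 to 27 over the settings and omissions run, while the count with a negative interaction stayed within 38 to 41.

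Promoters of 4 of these genes are shown because interferon acts through a short element in them, the interferon-stimulated response element. Its core, GAAANNGAA, was searched on both strands in the 250 bases before the start of each gene (RefSeq, GRCm38.p6) and is in capitals, with overlapping cores merged. It was found for 16 of 31 interferon-stimulated genes with a promoter in the table (51.6%) and for 720 of 9029 tested genes with one (7.97%). A match is a description of the letters and not evidence of binding. Stretches are 5′ to 3′ on the gene's strand: Bst2 at chr8:71537566-71537625 (minus), Oas1a at chr5:120907526-120907585 (minus), Isg15 at chr4:156200857-156200916 (minus) and Ifit3 at chr19:34583392-34583451 (plus). The 4 genes come from different classes: Bst2 was opposite, Oas1a in microglia alone, and Isg15 and Ifit3 larger in microglia.
Bst2: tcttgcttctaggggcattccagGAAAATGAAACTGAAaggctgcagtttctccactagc
Oas1a: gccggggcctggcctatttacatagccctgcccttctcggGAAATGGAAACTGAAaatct
Isg15: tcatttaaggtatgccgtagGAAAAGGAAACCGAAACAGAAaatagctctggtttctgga
Ifit3: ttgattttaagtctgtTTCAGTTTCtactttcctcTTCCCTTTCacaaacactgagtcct

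Bst2 (tetherin, which holds budding virus at the cell surface) had 52.9, 51.5 and 81.8 normalized counts in WT and 271, 275 and 285 in KO microglia, beside 401, 417 and 444 in WT and 295, 270 and 245 in KO macrophages. KO libraries of both origins overlapped between the WT levels. Its change was 2.17 ± 0.15 in microglia and -0.64 ± 0.15 in macrophages (interaction -2.82 ± 0.21, adjusted p = 1.42e-07). Oas1a, a sensor of double-stranded RNA, had 9.69, 15.5 and 11.4 in WT and 125 ± 12.8 in KO microglia, beside 65.5, 94 and 71.6 in WT and 123, 98.6 and 89.1 in KO macrophages. The macrophage groups overlapped, with a change of 0.43 ± 0.21 (adjusted p = 0.138) beside 3.27 ± 0.21 in microglia. Both Oas1a and Ifit3 have close copies with which they can share reads. Ifit3 went from 21.5 ± 6.44 to 295 ± 38.2 in microglia, against 61.8 ± 26.1 to 165 ± 35.3 in macrophages (interaction -2.28 ± 0.38, adjusted p = 0.000432). Isg15, a ubiquitin-like modifier, went from 7.66 ± 3 to 56.2 ± 6.76 and from 13.9 ± 2.93 to 34.9 ± 7.2, and its interaction (-1.52 ± 0.44, adjusted p = 0.0199) missed the threshold in 3 of 21 other settings, up to an adjusted p of 0.0887. Oas2, of the same family as Oas1a, went from 14 ± 9.65 to 1899 ± 358 in microglia, against 595 ± 95.6 to 1395 ± 102 in macrophages.

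Genes of antigen presentation fell into several classes. H2-Aa, a class II chain that presents peptide, had 33.5, 34.8 and 35.2 normalized counts in WT and 1270, 1141 and 1168 in KO microglia, beside 1470, 1276 and 1207 in WT and 8101, 7698 and 6723 in KO macrophages. Its change was 5.07 ± 0.09 in microglia and 2.51 ± 0.09 in macrophages (interaction -2.56 ± 0.13, adjusted p = 1.95e-09). Cd74, the invariant chain, and Ciita, the class II transactivator, also rose in both origins, with interactions of -2.37 ± 0.13 and -1.79 ± 0.3. H2-DMa and H2-DMb1 encode the paired chains that load peptide onto class II molecules, and their effects were of other classes. H2-DMa fell from 272 ± 14.8 to 150 ± 13.8 in microglia and rose from 417 ± 22.8 to 686 ± 90.9 in macrophages (interaction 1.57 ± 0.15, adjusted p = 2.15e-06). H2-DMb1 had 120, 115 and 122 in WT and 115, 112 and 109 in KO microglia, beside 154, 166 and 116 in WT and 525, 442 and 428 in KO macrophages. It rose in macrophages alone, by 1.68 ± 0.13, beside a 95% interval of -0.37 to 0.2 in microglia, though it can share reads with its close copy H2-DMb2. Of 16 tested class II genes, 5 had a positive and 6 a negative interaction (68.8%, beside 25.8% of all tested genes), so the list as a whole had no common direction (median -0.05). Among markers of dendritic cells, which also hold class II molecules, Ccr7 was at 0 to 0.804 and Xcr1 at 0 to 3.81 in every library, while Clec9a was at 53.1 to 78.5 in KO macrophages and 0 to 6.88 elsewhere. Zbtb46 rose in microglia alone, from 21.7 to 22 up to 91.6 to 123, beside 17.8 to 20.6 in WT and 12.8 to 49.6 in KO macrophages (interaction -1.71 ± 0.5, adjusted p = 0.0203). Flt3 fell in macrophages from 20 to 28 in WT to 0 to 6.46 in KO, Kmo rose in both origins and Cd209a in microglia. Clec9a also rose in microglia, from a mean of 0.723 to 6.4. The interactions of Flt3, Kmo, Cd209a and Clec9a were not called (adjusted p = 0.0811, 0.145, 0.13 and 0.0788). Itgae fell in microglia alone, from a mean of 54.2 to 2.11, beside 6.02 and 2.99 in macrophages (interaction 2.98, adjusted p = 0.0306). Of the 10 tested dendritic cell markers, 6 rose and 2 fell in microglia, beside 21.9% and 20.6% of all tested genes. In macrophages 2 rose and 4 fell, beside 16.0% and 15.4%. The summed list, dominated by Siglech and Tcf4, was 6986 to 7322, 2065 to 2300, 3262 to 3610 and 1522 to 1951 in the same order of groups, 5 of its 10 tested genes had a called interaction, and its part was not tested. Of 21 tested class I genes 10 had a negative and none a positive interaction (47.6%), beside 12.9% negative over all tested genes. H2-Q6, whose close copies make its counts uncertain, was called opposite, but its fall in macrophages missed the threshold in 6 of 21 settings: with no mean-variance trend, without each WT macrophage library, and without KO macrophage replicates 1 and 3.

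Glycolysis genes carried the most positive interactions among the metabolic lists. Of 20 tested, 14 had a positive and 3 a negative interaction (85.0% called, beside 25.8% of all tested genes), with medians of -0.47 in microglia, 0.27 in macrophages and 0.86 for the interaction. In microglia 4 rose and 11 fell, beside 21.9% and 20.6% of all tested genes. In macrophages 9 rose and 4 fell, beside 16.0% and 15.4%. Hk1, Aldoa, Pkm and Pdk1 were called opposite, and Tpi1, Ldha and Slc16a1 rose in macrophages alone. Aldoa, which cleaves fructose bisphosphate, had 467, 379 and 453 normalized counts in WT and 291, 258 and 285 in KO microglia, beside 294, 276 and 287 in WT and 488, 341 and 355 in KO macrophages. Each KO group lay wholly to 1 side of its WT group (interaction 1.08 ± 0.18, adjusted p = 0.000379). Pdk1, which holds pyruvate back from the mitochondrion, had 525, 450 and 508 in WT and 227, 232 and 223 in KO microglia, beside 152, 161 and 187 in WT macrophages and 224 ± 10.8 in KO macrophages (interaction 1.54 ± 0.14, adjusted p = 1.34e-06). Ldha, which makes lactate, went from 154 ± 25.3 to 137 ± 13.1 in microglia, against 104 ± 14.1 to 177 ± 16.9 in macrophages. The opposite calls were fragile: 1 was left without WT macrophage replicate 2 and 2 without KO macrophage replicate 1, while the positive interactions stayed within 12 to 15 over the settings and omissions run.

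Of 25 tested oxidative phosphorylation genes 11 rose in macrophages, where 16.0% of all tested genes rose. In microglia 1 rose and 2 fell, beside 21.9% and 20.6% of all tested genes. An interaction was called for 7 of the 25 (28.0%), a share near the 25.8% of all tested genes. All 7 were positive, where 13.0% of all tested genes had a positive interaction, and 6 of them were called in macrophages alone. The ATP synthase alpha subunit gene Atp5a1 had 735, 656 and 673 normalized counts in WT and 648, 648 and 756 in KO microglia, beside 430, 451 and 501 in WT and 707, 714 and 657 in KO macrophages. WT macrophages stood apart from the other 9 libraries, with a change of 0.59 ± 0.09 in macrophages and -0.01 ± 0.09 in microglia (interaction 0.6 ± 0.13, adjusted p = 0.00258). Counts with a positive interaction ran from 5 to 10 over the settings and omissions run, with 5 when Ddx3y was a covariate and the highest without KO macrophage replicate 3. Transcripts of the mitochondrial genome took 3.86 to 4.36% of counts in WT microglia, 5.84 to 7.68% in KO microglia, 3.18 to 5.35% in WT macrophages and 4.61 to 6.43% in KO macrophages, and their part in these nuclear genes was not tested.

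**Figure D4:**
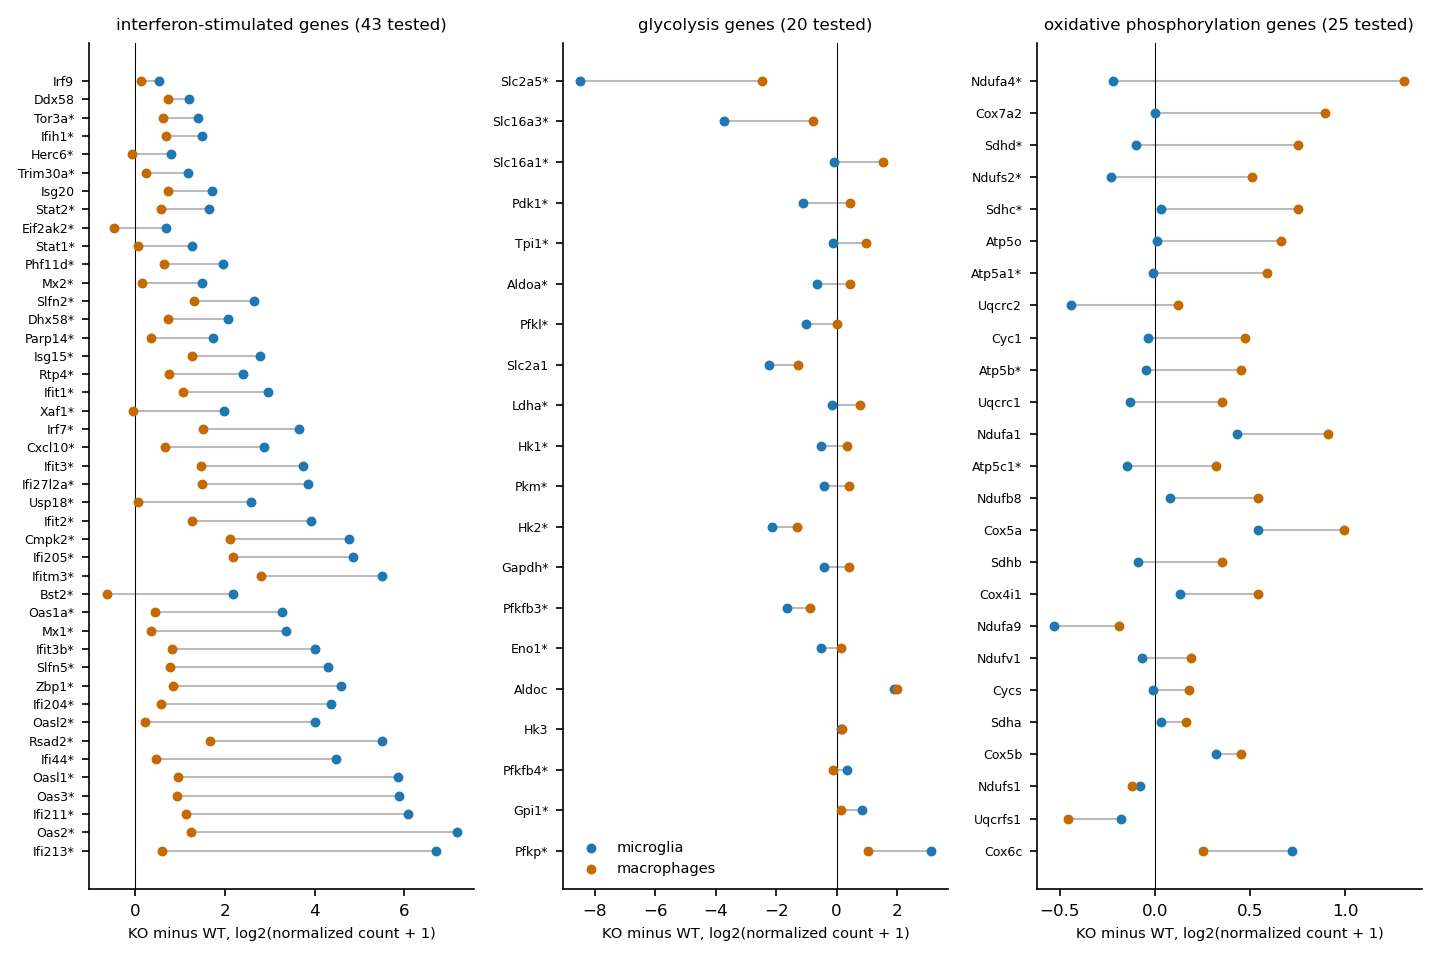
KO minus WT log2 change in microglia and in macrophages for each tested gene of 3 lists: interferon-stimulated, glycolysis and oxidative phosphorylation genes. An asterisk marks an interaction with an adjusted p under 0.05. The interferon-stimulated genes lie higher in microglia (medians 2.97 and 0.72), the glycolysis genes higher in macrophages (medians -0.47 and 0.27).

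Some further lists are given beside 25.8% called, 13.0% positive and 12.9% negative over all tested genes, and several lists are not reported here. Of 14 tested complement genes 6 had a positive and 4 a negative interaction (71.4%). C1qa, C1qb and C1qc, the chains of the C1q recognition molecule, rose in macrophages alone. C1qb had 4428, 4664 and 4188 normalized counts in WT and 9950, 6283 and 5945 in KO macrophages, beside 7578, 6349 and 7257 in WT and 7279, 6989 and 7007 in KO microglia. KO macrophage replicate 1 stood far above its mates. With Ddx3y as a covariate none of the 3 C1q interactions passed, at adjusted p of 0.0725, 0.104 and 0.0626. Of 19 phagocytic and scavenger receptor genes 9 had a positive and 8 a negative interaction (89.5%). Msr1, a scavenger receptor for modified lipoprotein, rose more in microglia, and Havcr2, which encodes the inhibitory receptor Tim-3, fell more there, with interactions of -5.41 ± 0.22 and 2.31 ± 0.14. Of 32 transcription factor genes of macrophages, 14 had a positive and 6 a negative interaction (62.5%). Cebpd, a regulator of acute-phase genes, was the 1 opposite gene among them: it fell from 210 ± 20.2 to 93.8 ± 3.02 in microglia and rose from 95.1 ± 13.9 to 139 ± 24 in macrophages. The rise was not called without WT macrophage replicate 1 or KO macrophage replicate 2 (adjusted p up to 0.0786). Of 29 lysosomal genes 13 had a positive and 1 a negative interaction (48.3%). Lgmn, an asparaginyl protease, fell in microglia alone from 11657 ± 1099 to 3455 ± 59, beside 4376 ± 265 and 3970 ± 308 in macrophages. Genes known to respond to cell isolation had 3 positive and 4 negative interactions of 27 (25.9%), a share near that of all tested genes. KO macrophage replicate 1 stood apart on this list, with a sum of 39305 normalized counts beside 17925 and 17920 in its mates. The immediate-early gene Jun had 7579 there, beside 2686 and 2167. Without this library 4 positive and 8 negative interactions were called.

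Cell cycle genes gave the fewest interactions of the biology lists: 2 of 31 tested were called (6.45%, beside 25.8%), Ccnd2 and Cenpe. In microglia 22 of the 31 rose and in macrophages 24, beside 21.9% and 16.0% of all tested genes. Without KO microglia replicate 1 the call of Cenpe was lost (adjusted p = 0.0501), and without KO macrophage replicate 1 negative interactions were called for 5 genes. Mki67, a marker of dividing cells, had 189, 107 and 219 normalized counts in WT and 1224, 705 and 1029 in KO microglia, beside 170, 233 and 197 in WT and 2026, 887 and 904 in KO macrophages. Its change was 2.54 ± 0.31 in microglia and 2.56 ± 0.31 in macrophages, with an interaction of 0.02 ± 0.43 (adjusted p = 0.98). An SE of this size does not show that both origins responded alike. Ccnd2, a D-type cyclin, rose from 6.11 ± 4.08 to 110 ± 17.3 in microglia alone, beside 150 ± 48.4 and 183 ± 13.8 in macrophages.

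**Figure D5:**
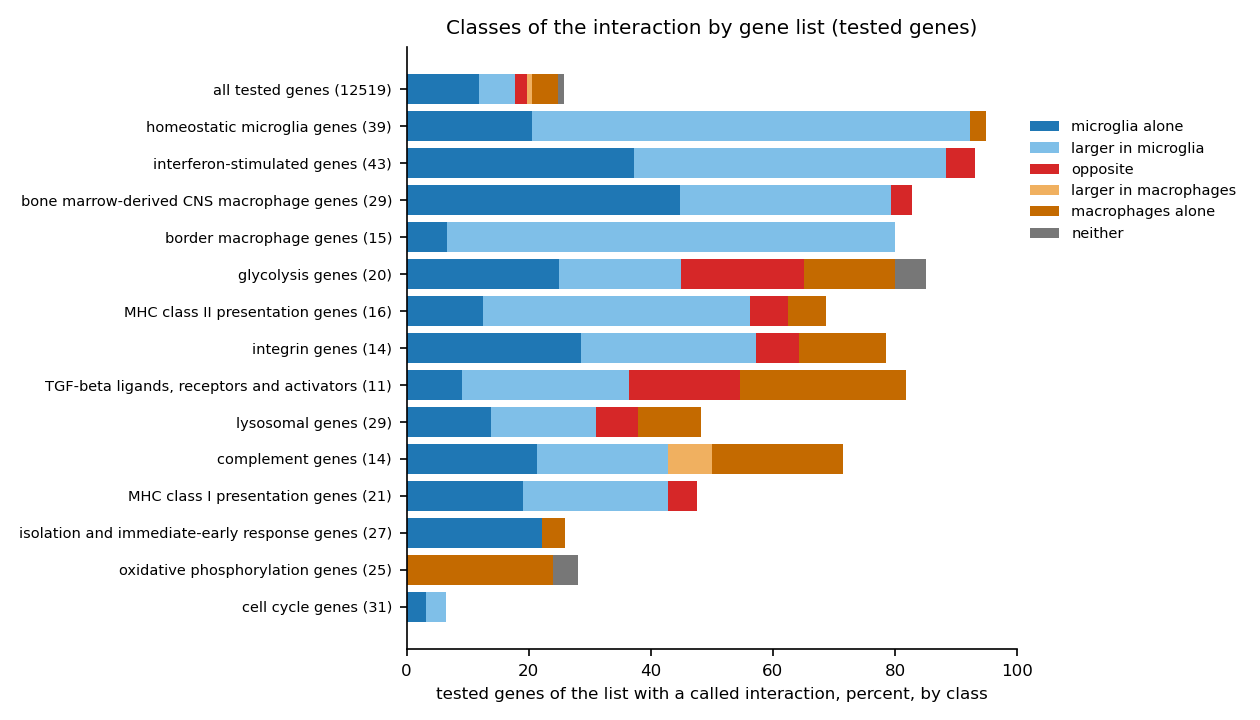
Percent of the tested genes of each list that fell in each class of called interaction, as stacked bars, with the bar of all tested genes for comparison. Homeostatic microglia genes (94.9% called) and interferon-stimulated genes (93.0%) stand at 1 end and cell cycle genes (6.45%) at the other, with 25.8% for all tested genes.

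Across all 3235 called genes, the group means of the origins were within 2-fold of each other for 1899 in WT cells (58.7%) and for 2827 in KO cells (87.4%). Over all tested genes these shares were 81.9% and 91.3%. The calls rest on the same libraries, so these shares describe the classes and are no test. The log2 scale also sets what counts as larger. On the linear scale the difference of changes had the other sign for 96 called genes (2.97%), 61 of them among the 372 that rose more in microglia. Cd93, a receptor of the C-type lectin fold, had means of 1.57 ± 1.39 and 1574 ± 89.9 normalized counts in WT and KO microglia and 493 ± 35.2 and 3677 ± 578 in WT and KO macrophages. Its log2 change was larger in microglia, 9.46 ± 0.32 against 2.89 ± 0.32, while its gain in counts was larger in macrophages. The class II genes H2-Aa, Cd74 and H2-Ab1 were of the same kind.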

How the data were processed

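RNA of 12 sorted pools was sequenced with a stranded total RNA kit for small inputs. The authors deposited 1 table of log2 values; per the submitters' processing notes reads were handled with bcl2fastq, CASAVA and STAR on GRCm38. The sources used here do not give versions, the normalizing tool, the annotation, or the read counter and its use of strand, so overlapping or antisense genes and near-identical copies are uncertain. The deposited log2 values equal log2(normalized count + 1): all 310848 values gave whole reads within a tolerance of 0.01, the largest deviation being 0.00089. Symbols came from GENCODE M21 for 25730 genes, with 174 unmatched. Count models were not applied to the log2 values.

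Genes with at least 10 normalized counts in at least 3 libraries were fitted with limma 3.58.1 (R 4.3.3; lmFit, contrasts.fit, eBayes with trend, not robust), with 1 mean a group, 8 residual degrees of freedom and a median prior of 6.64. Tests were two-sided with Benjamini-Hochberg adjustment over 12519 genes, and every adjusted p in the text is from this fit or a named alternative. The depth of 2615404 to 6364994 reads limits genes near 0, and counting intervals cover counting error only. Tables used pandas 2.3.3, numpy 2.4.6 and scipy 1.17.1 under Python 3.11.15, and figures matplotlib 3.10.9. Scripts were tested on simulated data.

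Gene lists and the comparison were chosen with earlier results of these data known. Genes were named by rank of the absolute interaction within class and direction among those with a highest group mean of at least 100 (6 a direction for 1 origin alone, also expressed in both origins and with the other effect under 0.5; 10 for opposite, ranked by the smaller effect; 5 for the rest), and up to 3 called genes a list by p. Outside that rule, and chosen after their values were seen, are Mertk, Axl, Psap, Pmepa1, C1qa, C1qb, C1qc, H2-DMa, H2-Ab1, Ciita, Aldoa, Hk1, Pkm, Tpi1, Ldha, Slc16a1, Cebpd, Mki67, Isg15, Oas1a, Ifit3, Eif2ak2, P2ry6, Ddx3y and the single markers of other cell types. RefSeq promoters matched 9029 of 12519 genes (72.1%), too few to compare classes, so shares by class are not given. Some genes that the rule names are not reported here.

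Alternatives were pseudocounts of 10 and 0.1, no filter and a filter of 50, robust moderation, no trend, limma-voom on the recovered reads, upper-quartile scaling, Ddx3y as a covariate, a fold minimum, and leaving out each library. List counts and gene classes under these, and a vessel marker sum without Pecam1, were added after seeing the data.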

Additional observations from a re-analysis of the deposited data

Results flagged for a closer look

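The effect of the deletion differed between origins by the test of the interaction itself for 3235 genes, and 257 of them were called in both origins with opposite signs. Among the 257, the 20 named by rank of the smaller effect had the following interactions, on the log2 scale with limma. Rises in macrophages with falls in microglia gave 5.51 for Pecam1, 4.92 for Myo6, 3.89 for Zfp827, 6.94 for Khdrbs3, 3.76 for Plcl1, 4.09 for Ccl9, 3.94 for Tppp, 6.57 for Kcnma1, 3.12 for Eng and 2.8 for Hes1. Falls in macrophages with rises in microglia gave -4.33 for Lrrk2, -4.19 for Jag1, -4.12 for Adam33, -3.05 for Arhgap15, -2.94 for AI504432, -2.98 for Runx3, -2.8 for Mob3b, -3.61 for Adgb, -2.73 for Tmem221 and -2.31 for Dna2. The macrophage means of Myo6, Zfp827, Khdrbs3 and Kcnma1 were at most 7.16 normalized counts in either genotype, and the microglial means of Lrrk2 and Runx3 at most 8.84, so these sizes rest on few reads.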

How the results depend on the processing

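For 158 of 172 named genes the interaction was called, with 1 direction, or not called alike in every setting run for single genes. There were 21 such settings, and 20 for Hbegf and Timd4. An interaction that was not called could still change sign, as for Mki67 (-0.37 to 0.33). Positive interactions slightly outnumbered negative ones as reported (1624 against 1611), and negative ones were the more numerous in 10 of 22 settings, such as 1561 against 1507 with a pseudocount of 0.1. With a minimum absolute log2 change of 1 for each call, 1645 interactions were left (768 positive, 877 negative), with 2697 effects in microglia and 1658 in macrophages. The classes then held 839 (microglia alone), 170 (macrophages alone), 46 (opposite), 326 (larger in microglia) and 25 genes (larger in macrophages). With Ddx3y as a covariate 2332 interactions were called, 2259 of them shared (69.8% of 3235), and 320 genes lay in macrophages alone and 50 in larger in macrophages. Leaving out single libraries gave 2643 to 3486 interactions, 318 to 745 genes in macrophages alone, 170 to 295 opposite and 54 to 107 larger in macrophages. The lowest of these were without WT macrophage replicate 1 (318 and 170) and WT microglia replicate 1 (54), and the cause was not tested. Upper-quartile scaling moved the positive share of calls from 50.2% to 44.7% (1469 positive, 1819 negative). No paired analysis was possible because the labels give no replicate numbers shared by the groups. Depth limits genes near 0, where 1 read was worth 0.718 to 1.6 normalized counts, and 3 pools a group limit small differences. The calls lost in most settings were those of Cacna1d and Gapdh (10 each), Egr2 (8), C1qb (7) and Isg15 (3), and the other 9 genes changed in 1 or 2.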
